A study of Drosophila melanogaster with 12 samples.

Results

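The proteasome subunits were taken as all genes with a symbol of Prosalpha, Prosbeta, Rpn or Rpt followed by a digit, each read from the probe set that is annotated to that gene alone and has the highest mean. The reference gene table names 48 such genes, of which 32 are canonical subunits and 16 are paralogues that carry a T or an R after the digit. In the 8-array table, 40 of them had a probe set of their own, 26 canonical subunits and 14 paralogues, out of 11982 named genes. In the 4-array table, 39 had one, the same number of canonical subunits and 13 paralogues, out of 10844 named genes. Prosalpha1, Prosalpha1R, Prosbeta1, Rpn9, Rpn10, Rpt1, Rpt6 and Rpt6R are not analysed here on either table, nor is Prosbeta5R2 on the 4-array table.

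The samples are 12 Affymetrix arrays of total RNA from heads of Drosophila melanogaster that express CLKGR, in 2 value tables of different array designs. CLKGR is the clock transcription factor CLK fused to a glucocorticoid receptor part, so that dexamethasone (DEX) switches it on, and cycloheximide (CHX), which blocks protein synthesis, was given in both arms. The 8-array table holds 2 arrays of DEX with CHX at Zeitgeber time (ZT) 16, the hours after lights on, 2 of vehicle with CHX at ZT16, 2 of DEX with CHX at ZT4 and 1 of vehicle with CHX at ZT4. Its last array is vehicle with CHX and no labelled time, and the 4-array table holds 2 arrays labelled DEX with CHX and 2 of vehicle with CHX, all without a time. The labels do not state the promoter behind CLKGR, the flies' age and sex, or the number of heads in an extract.

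The proteasome degrades proteins that carry ubiquitin chains, among them the clock proteins PER and TIM. Its barrel-shaped core is built of alpha rings, which gate the entry, and beta rings, in which Prosbeta1, Prosbeta2 and Prosbeta5 hold the proteolytic sites. A regulatory particle caps the core. Its base unfolds substrates with the Rpt ATPases and holds scaffold and ubiquitin-binding Rpn subunits, and its lid includes the deubiquitinase Rpn11. In Drosophila many of the paralogues are known as testis forms, such as Prosalpha6T, which is needed for male fertility. In flies and other animals the transcription factor Cnc raises the subunit genes together when proteasome activity falls short.

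Levels and changes below are on the log2 scale as read from the deposited values, a reading explained with the processing. If it does not hold, all changes and errors would be 1.44 times as large, with the same p-values. The CLK targets tim and per were looked at first. On the timed arrays tim averaged 9.63 with DEX and 6.21 with vehicle, a change of 3.21 ± 0.40 (SE), while on the 4-array table it averaged 4.01 on the arrays labelled DEX and 7.82 on the vehicle arrays, a change of -3.80 ± 0.20 (SE). The change of per was 2.63 ± 0.35 (SE) on the timed arrays and -1.90 ± 0.53 (SE) on the 4-array table. These targets thus ran opposite ways. The treatment labels of the 4-array table may be exchanged, which was not tested and would turn the sign of every change given for it. The table is described by its labels as they stand. Photoreceptor markers were above the filter level on both tables, 3 of 3 on each, and neuron markers for 3 of 4 on the 8-array table, where brp lay below it, and 4 of 4 on the other.

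All 26 canonical subunits lay well above the filter level, and most paralogues lay at or below it. The filter kept probe sets whose mean was above the 40th percentile, a level of 2.779 on the 8-array table and 2.924 on the 4-array table. Mean levels of the canonical subunits ran between 4.92 for Rpt4 and 7.83 for Prosbeta2 on the 8-array table, at percentiles 86.4 to 97.6 of all probe sets. On the 4-array table they ran between 4.38 for Rpt3 and 7.66 for Prosbeta4, at percentiles 86.4 to 97.5. Probe sets differ in how strongly they bind, so the levels do not order the subunits by amount.

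**Figure D1:**
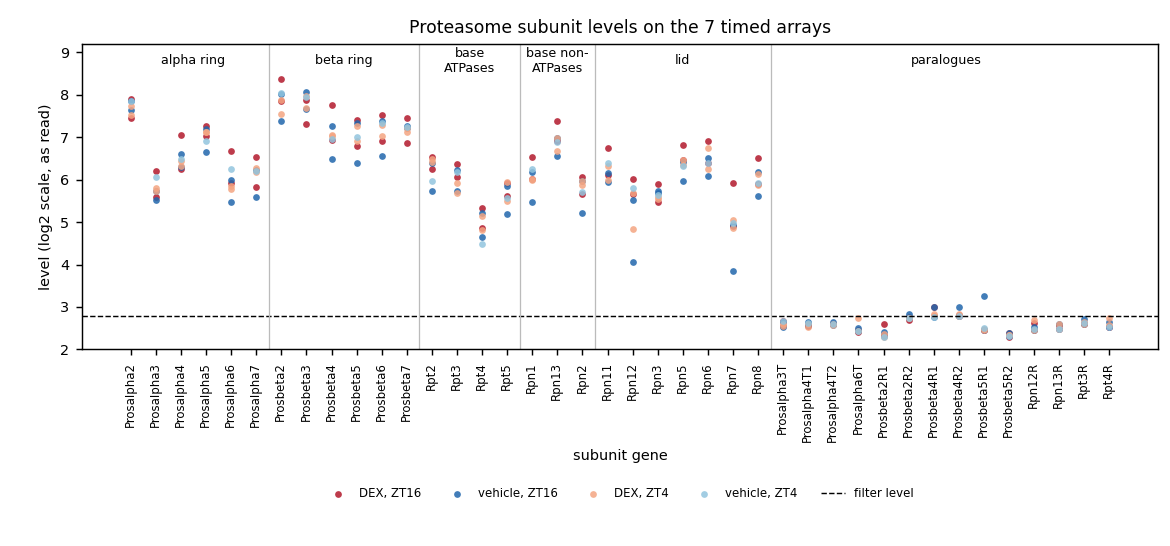
Levels of the 40 measured subunit genes on the 7 timed arrays, 1 point per array, by place in the complex (vertical axis: level on the log2 scale as read; dashed line: the filter level of 2.779). Every canonical subunit is above the line on every array, and the paralogues lie around or below it.

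Among the paralogues, 12 of 14 had a mean below the filter level of the 8-array table. The alpha-type ones averaged 2.60 for Prosalpha3T, 2.58 for Prosalpha4T1, 2.61 for Prosalpha4T2 and 2.48 for Prosalpha6T. Beta-type paralogues averaged 2.37 for Prosbeta2R1, 2.75 for Prosbeta2R2, 2.57 for Prosbeta5R1 and 2.34 for Prosbeta5R2. Those of the regulatory particle averaged 2.52 for Rpn12R, 2.52 for Rpn13R, 2.63 for Rpt3R and 2.58 for Rpt4R. Only Prosbeta4R1 at 2.85 and Prosbeta4R2 at 2.82 were kept, just inside the filter, and Prosbeta2R2 was the member just outside it. Both kept genes are paralogues of Prosbeta4 and are near neighbours, with 1 gene between them in the Release 6 plus ISO1 MT annotation.

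In the 4-array table, 8 of 13 paralogues had a mean below the filter level. Prosalpha4T1 averaged 2.77, Prosalpha4T2 2.32, Prosbeta2R1 2.21, Prosbeta2R2 1.86 and Prosbeta5R1 2.21. Rpn13R averaged 2.81, Rpt3R 2.81 and Rpt4R 2.40. The 5 kept ones were Prosalpha3T at 2.98, Prosalpha6T at 2.97, Prosbeta4R1 at 3.13, Prosbeta4R2 at 3.23 and Rpn12R at 3.11. Of 11 testis markers, 3 were above the filter level on the 8-array table, with means of 2.41 to 3.37 over the list, and 4 on the 4-array table, with means of 2.44 to 3.70. In whole heads, fewer cells of a type and less RNA per cell cannot be told apart. A single high value stood out, for Prosbeta5R1, at 3.26 on vehicle ZT16 replicate 1, against 2.45 to 2.51 on the other timed arrays.

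The canonical subunits stood high or low together from array to array, also within a treatment and time. Between the replicates of DEX at ZT16, all 26 were higher on replicate 2, by a median of 0.52 and by 0.22 to 1.00, whereas 55.0% of all 11261 kept probe sets were higher there. Between the replicates of vehicle at ZT16, 25 of 26 were higher on replicate 2, by a median of 0.55, against 44.9% of all. The exception was Prosalpha3, with 5.74 on replicate 1 and 5.51 on replicate 2. The DEX arrays at ZT4 were less split, with 9 subunits higher and 17 lower on replicate 2 and a median of -0.07. Of all kept probe sets, 54.0% were higher and 46.0% lower there.

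Measured against each gene's own mean over the 7 timed arrays, the subunits had a median deviation of -0.09 on DEX ZT16 replicate 1 and 0.41 on DEX ZT16 replicate 2, against -0.42 on vehicle ZT16 replicate 1 and 0.14 on vehicle ZT16 replicate 2. At ZT4 it was 0.03 and -0.08 on the DEX arrays, against 0.01 on the vehicle array. DEX ZT16 replicate 2 held the highest level of 24 of the 26 subunits, and of 13.7% of all kept probe sets. Vehicle ZT16 replicate 1 held the lowest level of 18 of them, and of 18.3% of all. The core and the regulatory particle shared this order: their medians were 0.40 and 0.43 on DEX ZT16 replicate 2, and -0.44 and -0.42 on vehicle ZT16 replicate 1. All kept probe sets had medians of -0.04 to 0.01 on these arrays. Vehicle ZT16 replicate 1 also held the highest level of 24.4% of all kept probe sets, the largest share of any timed array, and of no subunit. These deviations were not set beside those of probe sets of like level.

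**Figure D2:**
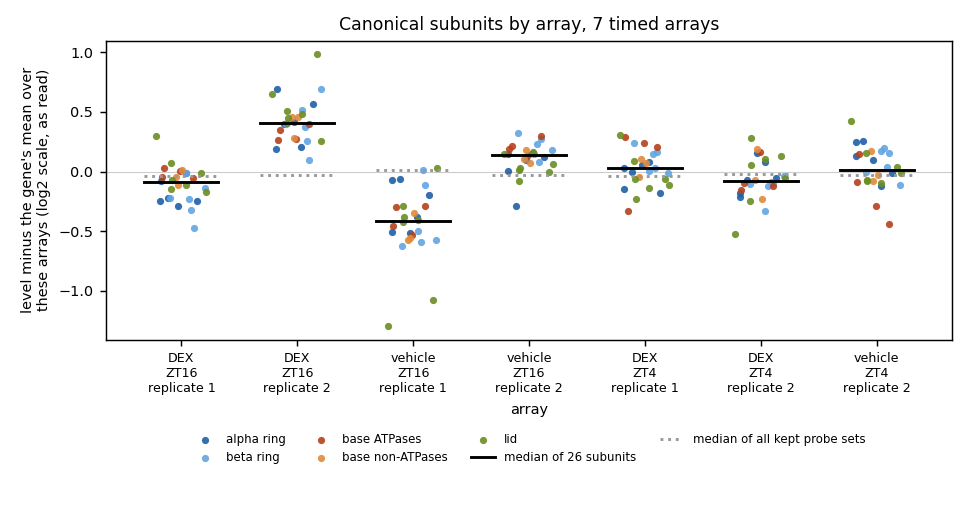
Deviation of the 26 canonical subunits from each gene's mean over the 7 timed arrays, 1 point per subunit (vertical axis: log2 scale as read; black bar: median of the subunits; dotted grey bar: median of all kept probe sets). The points sit around 0.41 on DEX ZT16 replicate 2 and around -0.42 on vehicle ZT16 replicate 1, and nearer to 0 on the other arrays.

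Other measures of these arrays are given beside this pattern, and their part in it was not tested. The gap between 3' and 5' control probe sets, a sign of RNA quality, was 1.20 for actin, 2.32 for Gapdh and 1.89 for eIF4a on DEX ZT16 replicate 2, and 1.21, 2.73 and 2.11 in the same order on vehicle ZT16 replicate 1. Over the 7 timed arrays these gaps ran between 0.85 and 1.70 for actin, 2.32 and 2.73 for Gapdh, and 1.89 and 2.16 for eIF4a. The bioB spike-in was at 9.50 on DEX ZT16 replicate 2 and at 10.17 on vehicle ZT16 replicate 1, the highest of the timed arrays. Fat body markers averaged 11.47 and 11.45 on these arrays, photoreceptor markers 8.63 and 8.55, glial markers 5.24 and 5.39, neuron markers 4.47 and 4.58, muscle markers 3.26 and 3.27, and testis markers 2.74 and 2.82. The marker means did differ between replicates. On DEX ZT16 replicate 1 and vehicle ZT16 replicate 2, fat body markers averaged 10.99 and 10.50, and photoreceptor markers 9.38 and 9.04. Glial markers averaged 5.80 and 5.18 there, neuron markers 4.77 and 4.65, muscle markers 3.19 and 3.13, and testis markers 2.67 and 2.69.

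The spread left on the 8-array table after fitting additive effects of treatment and time had a median SD of 0.30 over the subunits. It was 0.21 over all kept probe sets and 0.34 over the 2115 kept probe sets within the subunits' range of mean levels. Over the subunits it ran between 0.16 and 0.78, and 23 of the 26 were above the median of all. 

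With DEX on the timed arrays, most subunits were somewhat higher, and none passed the test. In limma with time as a covariate, 21 of 26 canonical subunits were higher and 5 lower, with a median change of 0.17, whereas 45.7% of all kept probe sets were higher and their median was -0.01. The changes lay between -0.21 and 0.62, with standard errors between 0.19 and 0.48. None of the 28 kept members had an adjusted p under 0.05, and 0% of all kept probe sets had one. None had an unadjusted p under 0.05 either, where 3.39% of all did. The smallest unadjusted p among them was 0.126, for Rpt2, with a limma adjusted p of 0.994. The CLK targets tim and per changed by 3.21 and 2.63 and did not pass the adjusted test either. Each had a limma adjusted p of 0.304. No subunit had its DEX and vehicle arrays apart: the share of all kept probe sets was 1.99% with every DEX array above and 2.52% with every one below.

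This balance rested on the pair of arrays that stood apart. Without DEX ZT16 replicate 2 the number of higher subunits was 13 and the median of all 26 was -0.01. Without vehicle ZT16 replicate 1 it was again 13, with a median of 0.00. Without both, an alternative chosen after the values were seen, 6 of 26 were higher and the median was -0.15. These arrays held the highest DEX or the lowest vehicle level of most subunits, so leaving them out was bound to lower most changes. The median was 0.27 without DEX ZT16 replicate 1, 0.29 without vehicle ZT16 replicate 2 and 0.27 without the vehicle ZT4 array. Weighting arrays by their scatter gave 13 higher subunits and a median of -0.01.

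The regulatory particle had a median DEX change of 0.24, with 12 of 14 members higher, and the core one of 0.10, with 9 of 12 higher. By group the medians were 0.25 for the 4 base ATPases, 0.21 for the 3 other base subunits, 0.26 for the 7 lid subunits, 0.12 for the 6 alpha subunits and 0.10 for the 6 beta subunits. The median of the core minus that of the regulatory particle was -0.13, a difference that was not tested.

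**Figure D3:**
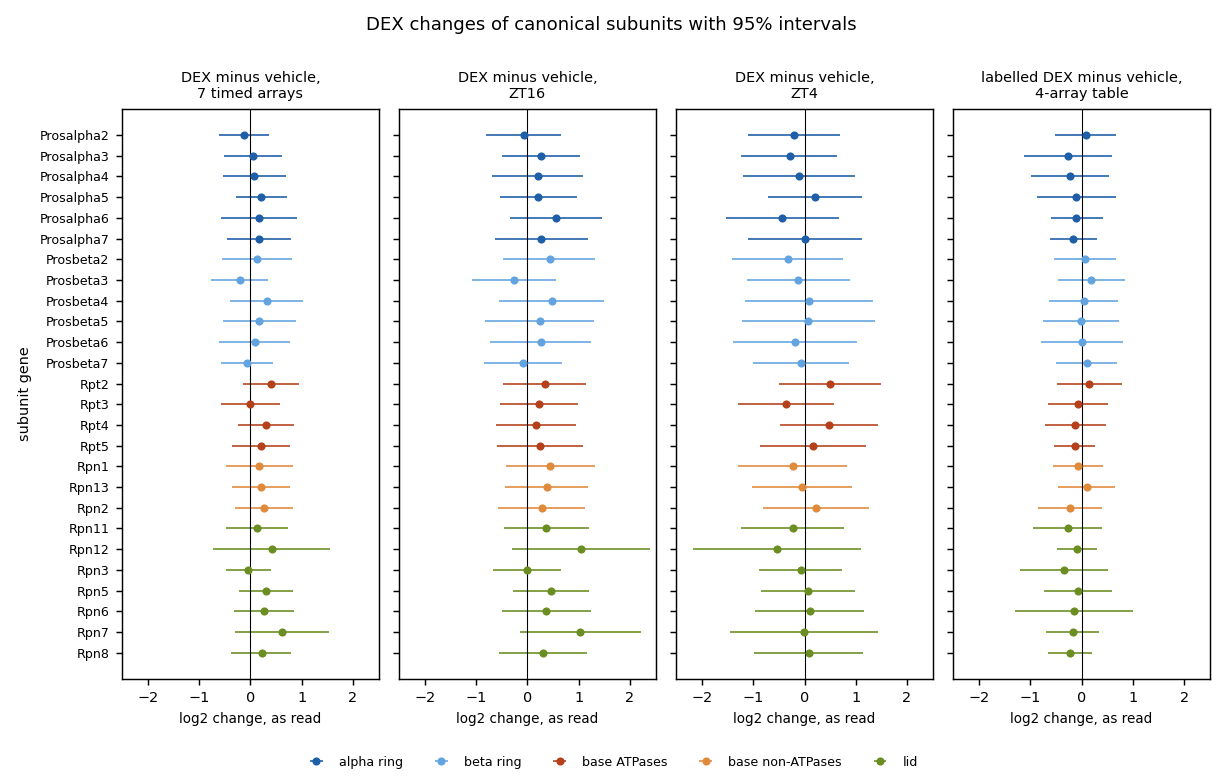
Log2 changes of the 26 canonical subunits with 95% intervals, from left to right with DEX on the 7 timed arrays, at ZT16, at ZT4 and on the 4-array table (horizontal axis: DEX minus vehicle, log2 scale as read; colours: place in the complex). All intervals include 0, and most points lie above 0 at ZT16 and below 0 on the 4-array table.

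At ZT16, 22 of 26 canonical subunits were higher with DEX, with a median change of 0.27, against 44.3% of all kept probe sets, whose median was -0.03. The regulatory particle had 13 of 14 members higher and a median of 0.35, and the core 9 of 12 and 0.25. No member passed the adjusted test (0% of all) or had an unadjusted p under 0.05 (2.8% of all). Without DEX ZT16 replicate 1, Prosalpha6 and Rpn7 had an unadjusted p under 0.05 (6.93% of all), and without vehicle ZT16 replicate 2, Rpn7 and Rpn12 did (15.8% of all). Rpn5 and Rpn12 had both DEX arrays above both vehicle arrays, as did 10.1% of all kept probe sets, and no subunit had both below, against 13.8% of all. Without vehicle ZT16 replicate 1, 13 subunits were higher and the median was 0.01. The median was 0.59 without DEX ZT16 replicate 1, 0.07 without DEX ZT16 replicate 2 and 0.58 without vehicle ZT16 replicate 2.

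At ZT4, with 1 vehicle array, 11 subunits were higher with DEX and 15 lower, with a median of -0.06, where 55.5% of all kept probe sets were higher. The base ATPases had a median of 0.32, with Rpt2, Rpt4 and Rpt5 higher and Rpt3 lower. None of the members passed the adjusted test (0% of all) or had an unadjusted p under 0.05 (4.0% of all). The lone vehicle array was assumed to vary like the other groups. Higher with DEX at both times were 11 subunits, and lower at both were Prosalpha2, Prosbeta3, Prosbeta7 and Rpn3. The other 11 were higher at ZT16 and lower at ZT4.

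The difference itself, the DEX change at ZT16 minus that at ZT4, was above 0 for 22 of 26 subunits, with a median of 0.28, against 45.2% of all kept probe sets. All 7 lid subunits and all 6 alpha subunits were above 0. No member passed the adjusted test (0% of all) or had an unadjusted p under 0.05 (2.72% of all), and the smallest unadjusted p was 0.119, for Rpn12, with a limma adjusted p of 0.997. Without DEX ZT16 replicate 2, 11 subunits were above 0 and the median was -0.05. Without vehicle ZT16 replicate 1 it was 0.04.

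Time of day left the subunits close to balance. At ZT16 against ZT4, 16 of 26 canonical subunits were higher and 10 lower, with a median of 0.02 and changes between -0.17 and 0.25, where 54.7% of all kept probe sets were higher. No member passed the adjusted test (0% of all) or had an unadjusted p under 0.05 (3.57% of all). No subunit had its ZT16 arrays wholly above or below its ZT4 arrays, as 2.44% and 2.25% of all kept probe sets did. The number of higher subunits was 2 without DEX ZT16 replicate 2, with a median of -0.12, and 10 without DEX ZT4 replicate 2, with a median of -0.03. With each array left out in turn the median ran between -0.12 and 0.14.

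In the alpha ring, Prosalpha6 spread the most. It had 5.91 and 6.68 on the DEX ZT16 arrays, against 5.48 and 5.99 on the vehicle ZT16 arrays, and 5.85 and 5.77 on the DEX ZT4 arrays, against 6.24 on the vehicle ZT4 array. The DEX and vehicle arrays overlapped at ZT16, and the single vehicle array was the higher at ZT4. The DEX change of Prosalpha6 was 0.56 ± 0.37 (SE) at ZT16 and -0.43 ± 0.45 (SE) at ZT4. The difference between the times, 0.99 with a 95% interval of -0.43 to 2.41, had a limma adjusted p of 0.997.

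Prosalpha2 was among the few subunits that were lower with DEX. It had 7.45 and 7.89 on the DEX ZT16 arrays, against 7.64 and 7.85 with vehicle, and 7.74 and 7.52 on the DEX ZT4 arrays, against 7.84 with vehicle. Its change was -0.13 on the timed arrays, with an interval of -0.62 to 0.36. Prosalpha3, whose end in yeast helps to close the gate, had 5.59 and 6.21 with DEX at ZT16, against 5.74 and 5.51 with vehicle, and 5.80 and 5.74 with DEX at ZT4, against 6.06 with vehicle. The ZT16 and ZT4 arrays overlapped, and its time change was -0.10 with an interval of -0.66 to 0.47.

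Prosalpha7 had 5.83 and 6.53 with DEX at ZT16, against 5.60 and 6.22 with vehicle, and 6.17 and 6.27 with DEX at ZT4, against 6.21 with vehicle. Its ZT4 arrays lay within 0.10 of each other, inside the range of the ZT16 arrays, and its time change was -0.15 with an interval of -0.77 to 0.47. Prosalpha4 and Prosalpha5 had DEX changes of 0.07 and 0.21.

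In the beta ring, Prosbeta3, a subunit without a proteolytic site, had the smallest p among the members lower with DEX. It had 7.31 and 7.88 on the DEX ZT16 arrays, against 7.67 and 8.06 with vehicle, and 7.96 and 7.69 on the DEX ZT4 arrays, against 7.94 with vehicle. The replicates differed by more than the groups did. Its DEX change was -0.21 ± 0.23 (SE), with an interval of -0.76 to 0.34 and a limma adjusted p of 0.994. Its time change was -0.17 ± 0.23 (SE), and at ZT16 its DEX change was -0.27 ± 0.33 (SE).

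The proteolytic subunits measured, Prosbeta2 and Prosbeta5, had DEX changes below their standard errors of 0.29 and 0.30 on the timed arrays. Prosbeta2, which cuts after basic residues, averaged 7.91 ± 0.35 with DEX (SD, n = 4) and 7.81 ± 0.38 with vehicle (SD, n = 3), a change of 0.12 with an interval of -0.56 to 0.81. Prosbeta5, which cuts after hydrophobic residues, averaged 7.09 ± 0.29 with DEX (SD, n = 4) and 6.91 ± 0.48 with vehicle (SD, n = 3), a change of 0.17 with an interval of -0.54 to 0.89.

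Prosbeta4 had the largest DEX change in the core. It had 6.93 and 7.76 with DEX at ZT16, against 6.49 and 7.25 with vehicle, and 7.06 and 7.03 with DEX at ZT4, against 6.96 with vehicle. Its change was 0.32 with an interval of -0.39 to 1.02. Prosbeta6 had 6.91 and 7.52 with DEX at ZT16, against 6.55 and 7.37 with vehicle, and 7.29 and 7.02 with DEX at ZT4, against 7.33 with vehicle. Its time change was -0.11 ± 0.29 (SE), and the times overlapped.

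Prosbeta7 had 6.87 and 7.45 with DEX at ZT16, against 7.21 and 7.27 with vehicle, and 7.22 and 7.11 with DEX at ZT4, against 7.23 with vehicle. The change with DEX was -0.07, with an interval of -0.58 to 0.43, and it was 0.07 without DEX ZT16 replicate 1. The vehicle arrays spanned little and lay inside the range of the DEX arrays.

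In the base, Rpt2, the ATPase whose tail opens the core's gate in yeast, had the smallest p of all members with DEX. It had 6.25 and 6.52 on the DEX ZT16 arrays, against 5.72 and 6.39 with vehicle, and 6.49 and 6.41 on the DEX ZT4 arrays, against 5.96 with vehicle. All but DEX ZT16 replicate 1 of the DEX arrays were above all timed vehicle arrays. The vehicle array without a time was at 6.52, and over all 8 arrays, with treatment only, the change was 0.28. On the timed arrays the change was 0.40 ± 0.23 (SE), a 1.32-fold difference with a 95% interval of -0.14 to 0.94 in log2. Its limma adjusted p was 0.994. At ZT4 its change was 0.50 ± 0.40 (SE).

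Rpt4 had 4.87 and 5.32 with DEX at ZT16, against 4.64 and 5.22 with vehicle, and 5.14 and 4.81 with DEX at ZT4, against 4.49 with vehicle. The replicates within ZT16 differed more than the treatments. With DEX it was 0.30 ± 0.23 (SE) higher, and its time change was 0.25 ± 0.23 (SE), the largest of any member. Its DEX change was 0.17 ± 0.32 (SE) at ZT16 and 0.48 ± 0.39 (SE) at ZT4, and the difference of -0.32 had an interval of -1.55 to 0.92.

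Rpt3 had 6.05 and 6.37 with DEX at ZT16, against 5.72 and 6.23 with vehicle, and 5.69 and 5.92 with DEX at ZT4, against 6.17 with vehicle. Its DEX change was 0.23 ± 0.31 (SE) at ZT16 and -0.36 ± 0.38 (SE) at ZT4, and its time change was 0.17 ± 0.24 (SE). Rpt5 had a DEX change of 0.21 ± 0.24 (SE). The scaffold subunits Rpn1 and Rpn2 had DEX changes of 0.17 ± 0.27 (SE) and 0.26 ± 0.24 (SE).

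Rpn13, a ubiquitin receptor, had 6.92 and 7.37 with DEX at ZT16, against 6.56 and 6.98 with vehicle, and 6.98 and 6.68 with DEX at ZT4, against 6.88 with vehicle. Its time change was 0.14 ± 0.24 (SE), and was -0.01 without DEX ZT16 replicate 2. With DEX its change was 0.21, with an interval of -0.36 to 0.77.

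In the lid, Rpn7 and Rpn12 varied the most of all subunits. Rpn7, a scaffold subunit, had 4.91 and 5.91 on the DEX ZT16 arrays, against 3.84 and 4.92 on the vehicle ZT16 arrays, and 4.86 and 5.05 on the DEX ZT4 arrays, against 4.97 with vehicle. DEX ZT16 replicate 2 was highest and vehicle ZT16 replicate 1 lowest, and the other timed arrays lay between 4.86 and 5.05. The DEX change of Rpn7 was 0.62 ± 0.39 (SE) on the timed arrays and 1.03 ± 0.48 (SE) at ZT16, with limma adjusted p of 0.994 and 0.976. Without those 2 arrays the change on the timed arrays was -0.01.

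Rpn12, which joins the lid late in yeast, had 5.67 and 6.02 with DEX at ZT16, against 4.07 and 5.52 with vehicle, and 5.68 and 4.84 with DEX at ZT4, against 5.79 with vehicle. Both DEX arrays were above both vehicle arrays at ZT16 and below the single vehicle array at ZT4. At ZT4, 12 of the 26 subunits had both DEX arrays below that 1 array, and 6 had both above it. Such a gap is absent only where the single array lies between both DEX arrays. The share of all kept probe sets is not given here, so these counts are not read as a result about the subunits. The DEX change of Rpn12 was 1.05 ± 0.55 (SE) at ZT16, with a limma adjusted p of 0.976, and -0.53 ± 0.67 (SE) at ZT4. The difference of 1.58 had an interval of -0.55 to 3.71.

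Rpn5, another scaffold subunit of the lid, had 6.47 and 6.81 with DEX at ZT16, against 5.97 and 6.41 with vehicle, and 6.34 and 6.45 with DEX at ZT4, against 6.33 with vehicle. The change with DEX was 0.30, with an interval of -0.22 to 0.82. The deubiquitinase Rpn11 averaged 6.29 ± 0.33 with DEX (SD, n = 4) and 6.17 ± 0.23 with vehicle (SD, n = 3), a change of 0.13 ± 0.26 (SE). Rpn6 and Rpn8 had DEX changes of 0.26 and 0.22, and Rpn3 one of -0.04.

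The kept paralogues varied little. Prosbeta4R1 had 2.79 and 2.99 with DEX at ZT16, against 3.01 and 2.76 with vehicle, and 2.79 and 2.84 with DEX at ZT4, against 2.76 with vehicle. It had the smallest p of all members for time, with a change of 0.09 ± 0.09 (SE) and a limma adjusted p of 0.990. Prosbeta4R2 had 2.79 and 2.80 with DEX at ZT16, against 2.99 and 2.79 with vehicle, and 2.78 and 2.83 with DEX at ZT4, against 2.79 with vehicle. Its DEX change was -0.05 ± 0.07 (SE) and its change at ZT16 -0.09 ± 0.09 (SE), and vehicle ZT16 replicate 1 alone stood apart. The difference between the times was -0.11 with an interval of -0.47 to 0.24.

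On the 4-array table fewer subunits were higher than lower on the arrays labelled DEX, near the balance of all kept probe sets. Of 26 canonical subunits 8 were higher and 18 lower, with a median of -0.09, where 36.5% of all 8379 kept probe sets were higher and their median was -0.05. All 7 lid subunits were lower, with a median of -0.17, as were 5 of 6 alpha subunits, while 5 of 6 beta subunits were higher, with a median of 0.06. No member had an adjusted p under 0.05, and 0.0119% of all kept probe sets did. None had an unadjusted p under 0.05, where 5.42% of all did. Without DEX replicate 2, Prosalpha3, Rpn3 and Rpn6 had one (11.1% of all). The number of all kept probe sets that passed the adjusted test, 1 with every array, was 192 without DEX replicate 1 and 314 without DEX replicate 2. Rpn1, Rpn7, Rpn8 and Rpt5 had both arrays labelled DEX below both vehicle arrays, as did 31.4% of all kept probe sets. No subunit had both above, as 12.1% of all did.

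The replicates again differed by more than the treatments. The median deviation of the subunits was -0.11 and 0.12 on the arrays labelled DEX, against 0.16 and -0.13 on the vehicle arrays, replicates 2 and 3. Of the subunits, 24 were higher on replicate 2 than on replicate 1 of the arrays labelled DEX, against 58.0% of all kept probe sets, and 20 were lower on vehicle replicate 3 than on vehicle replicate 2, against 29.1% of all. The number of subunits higher on the arrays labelled DEX was 17 without DEX replicate 1, 4 without DEX replicate 2, 13 without vehicle replicate 2 and 2 without vehicle replicate 3. With quantile normalization it was 2. The median SD between replicates was 0.23, against 0.10 over all kept probe sets and 0.21 over the 1549 in the same range of levels.

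**Figure D4:**
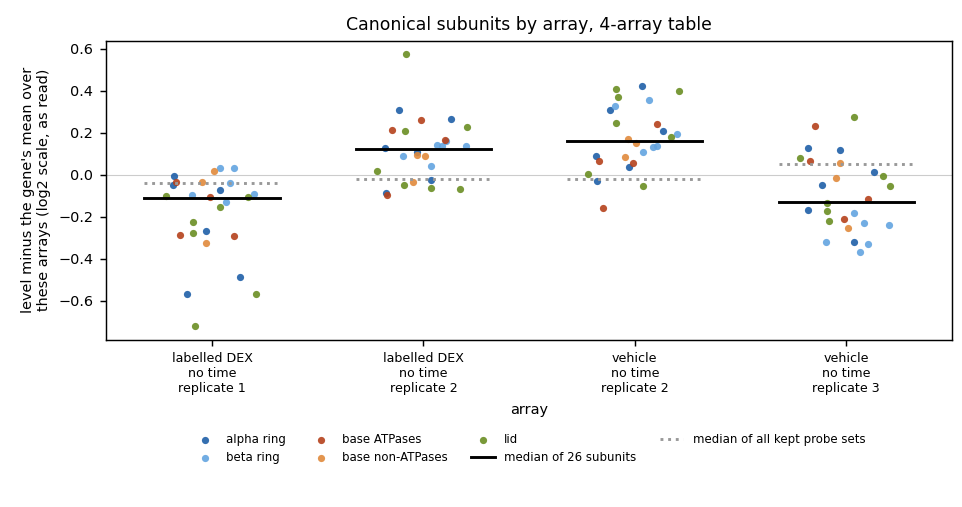
Deviation of the 26 canonical subunits from each gene's mean over the 4 arrays of the 4-array table, 1 point per subunit (vertical axis: log2 scale as read; black bar: median of the subunits; dotted grey bar: median of all kept probe sets). The medians are -0.11 and 0.12 on the arrays labelled DEX, and 0.16 and -0.13 on the vehicle arrays.

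Prosbeta3 had 6.74 and 6.87 on the arrays labelled DEX, against 6.85 and 6.38 on the vehicle arrays, a change of 0.19 with an interval of -0.46 to 0.85. Rpt2 had 6.25 and 6.62, against 6.41 and 6.15 with vehicle, a change of 0.15 with an interval of -0.47 to 0.78. Rpn13 had 5.56 and 5.63, against 5.70 and 5.29 with vehicle, and Prosbeta7 had 5.98 and 6.15, against 6.15 and 5.79 with vehicle. In these 4 genes the vehicle arrays overlapped the arrays labelled DEX. Rpn13 and Prosbeta7 had changes of 0.11 ± 0.22 (SE) and 0.10 ± 0.24 (SE), both -0.03 after quantile normalization. Without vehicle replicate 3, Prosbeta3 was at -0.04, Rpn13 at -0.10 and Prosbeta7 at -0.08, and Rpt2 was at -0.03 without DEX replicate 2.

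Rpn8, a lid subunit that pairs with Rpn11, had 4.35 and 4.44 on the arrays labelled DEX, against 4.45 and 4.78 on the vehicle arrays. Its change was -0.22 with an interval of -0.66 to 0.21 and a limma adjusted p of 0.778. Prosalpha3T had 2.93 and 2.93, against 2.99 and 3.07 with vehicle, a change of -0.10 ± 0.06 (SE). Prosalpha6T had 2.93 and 2.92, against 2.96 and 3.06 with vehicle, and Prosbeta4R2 had 3.10 and 3.22, against 3.23 and 3.35 with vehicle. Their changes were -0.08 ± 0.06 (SE) and -0.13 ± 0.09 (SE). All of these were a little lower on the arrays labelled DEX, close to the filter level for the paralogues. Of all kept probe sets, 36.5% were higher on the arrays labelled DEX. Vehicle replicate 3, where all of these genes were highest, held the highest level of 50.4% of all kept probe sets.

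Set side by side, the tables gave opposite signs for 19 of the 26 canonical subunits. Higher with DEX on the timed arrays and lower in the 4-array comparison were 16, and 3 were the other way round. Higher in both were 5 and lower in both were 2. Of the 5514 genes kept on both tables, 50.7% had opposite signs. With the labels of the 4-array table exchanged, 19 of the 26 would have the same sign and 7 opposite signs. No array is shared between these comparisons, and no test was made across the tables.

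Genes that act on or with the proteasome were looked at as 2 lists. The regulators, 9 of 9 measured, hold the transcription factors cnc and maf-S, the Cnc inhibitor Keap1, the activator REG, the assembly factor Pomp, the regulator PI31, the deubiquitinases Usp14 and Uch-L5 and the ubiquitin ligase Ubr3. With DEX on the timed arrays 1 was higher and 8 lower, with a median of -0.06. None passed the test or had an unadjusted p under 0.05, where 3.39% of all kept probe sets did. Cnc itself averaged 4.98 with DEX and 5.33 with vehicle, a change of -0.34 ± 0.20 (SE). In the 4-array table, 1 was higher and 8 lower as well, with a median of -0.11.

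The ubiquitin genes and the factors that deliver substrates had 11 of 13 members measured. With DEX on the timed arrays 8 were higher and 3 lower, with a median of 0.18, among them the polyubiquitin genes Ubi-p63E at 0.25 ± 0.20 (SE) and Ubi-p5E at 0.18 ± 0.17 (SE). At ZT16, 9 were higher, with a median of 0.24, and at ZT4 3 were higher and 8 lower, with a median of -0.09. Npl4, a cofactor of the unfoldase TER94, had a DEX change of 0.68 ± 0.25 (SE) at ZT16 and of -0.25 ± 0.30 (SE) at ZT4. At ZT16 its unadjusted p was 0.0333 and its limma adjusted p 0.976, and it was the 1 of 11 list members under 0.05 unadjusted, where 2.8% of all kept probe sets were. No member of either list passed the adjusted test in any of the 6 comparisons.

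By array, the ubiquitin list followed part of the subunits' order. Its median deviation was 0.15 on DEX ZT16 replicate 2, where 10 of 11 genes were above their means, and -0.31 on vehicle ZT16 replicate 1, where 1 of 11 was. The regulators had 0.04 and -0.08 on the same arrays, with 5 and 2 of 9 above their means.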

How the data were processed

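Total RNA of fly heads (Trizol extraction and biotin label, per the labels) was measured on Affymetrix arrays. The authors deposited linear intensity values, made with GCRMA per the submitters' processing notes. Its version and settings, and whether both tables were normalized together, go unstated in the sources used here. The highest deposited intensity, 5374153, exceeds the 65535 of a 16-bit scanner, while natural logs of the deposited values ran between 0.97 and 15.5. Natural logs were therefore read as log2 levels, a scale chosen after the values were seen. The planned step was log2 of a linear table.

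Control probe sets were left out, 183 on the 8-array table and 44 on the 4-array table. Probe sets with a mean above the 40th percentile were kept, 11261 and 8379. Genes were named through the platform annotation and the Release 6 plus ISO1 MT gene table. No sequences of the members were used here.

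Tests used limma 3.58.1 in R 4.3.3 with a mean-variance trend and Benjamini-Hochberg adjustment over all kept probe sets of a table, and the code was tested on simulated data. Intervals are 95%. The vehicle array of the 8-array table without a time entered only an alternative. The vehicle array without a replicate number is called replicate 3, as a name. Replicates are arrays whose origin the labels do not describe, so p-values measure the spread between arrays, which may be technical, and the number of arrays limits precision.

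The members and lists were chosen with earlier results of these data known. All members may be named. Values per array and full statistics are given for the 4 members with the smallest p in each direction with DEX, with time and on the 4-array table, and for 2 in each direction at ZT4, at ZT16 and in their difference; Prosbeta4 and other members were added after their values were seen. Alternatives were no filter or a filter at the 60th percentile, quantile normalization, median centring, array weights, no trend, the mean of a gene's probe sets, a replicate block, all 8 arrays, no time term, and each array left out.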

Additional observations from a re-analysis of the deposited data

Results flagged for a closer look

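Among the 4 DEX arrays with a labelled time, 3 of 26 canonical subunits had 1 array far from the others. In all 3 it was DEX ZT16 replicate 2, where Prosalpha6 was at 6.68, Prosbeta4 at 7.76 and Rpn1 at 6.53. Of the timed arrays, that one held the highest level of 24 of the 26 subunits. The other DEX arrays lay between 5.77 and 5.91 for Prosalpha6, between 6.93 and 7.06 for Prosbeta4, and between 5.99 and 6.02 for Rpn1. Chance marks about 1 in 20 such groups, and the subunits are measured on the same arrays, so the 3 are not separate results. The share of all kept probe sets marked by the same rule is not given here.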

How the results depend on the processing

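No canonical subunit reached an adjusted p under 0.05 in any of the 6 comparisons under any alternative, and the smallest adjusted p was 0.107, on the 4-array table without DEX replicate 2. The filters, the trend setting, median centring and the mean of a gene's probe sets turned no named change and moved no count by over 1.5 times, and neither did the fits over all 8 arrays or without a time term, run for DEX on the timed arrays alone. The exception was the stricter filter, under which 13 of 13 paralogues of the 4-array table were below the level and which leaves the paralogues without a test. Array weights gave 13 higher subunits with DEX on the timed arrays, with a median of -0.01. Quantile normalization gave 2 on the 4-array table, with Rpn13 and Prosbeta7 at -0.03. The cause was not tested.

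The labels do not say whether equal replicate numbers mark paired arrays. Differences between replicates correlated at -0.008, -0.244 and 0.073 across all kept probe sets between groups, which does not decide it. Of the 26 subunits, 26 with DEX and 25 with vehicle were higher on replicate 2 at ZT16, and 9 with DEX at ZT4. With the replicate block, 17 subunits were higher with DEX at ZT4, with a median of 0.07. Rpn7 then had an unadjusted p of 0.0231 on the timed arrays and 0.0262 at ZT16 in limma. Of all kept probe sets, 3.37% and 2.31% were under 0.05 in these fits. The smallest limma adjusted p of the subunits was 0.990 and 0.999. No paired analysis was possible on the 4-array table because its groups share 1 number. Leaving out the only ZT4 vehicle array gives no ZT4 change and no difference between times.

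With each array left out in turn, higher subunits numbered 13 to 24 with DEX on the timed arrays, 2 to 23 with time, 13 to 26 at ZT16, 11 to 25 in the difference and 2 to 17 on the 4-array table. Medians ran between -0.01 and 0.29 with DEX on the timed arrays, -0.12 and 0.14 with time, 0.01 and 0.59 at ZT16, -0.05 and 0.58 in the difference, and -0.15 and 0.09 on the 4-array table. Core minus regulatory particle ran between -0.23 and -0.10 with DEX, -0.17 and -0.01 with time, -0.21 and 0.01 at ZT4, -0.16 and -0.03 at ZT16, -0.19 and 0.13 in the difference, and 0.05 and 0.29 on the 4-array table. Without vehicle ZT16 replicate 2, Rpt2 had an unadjusted p under 0.05 in limma with DEX on the timed arrays, as did 5.29% of all kept probe sets. Signs turned for Prosbeta4R2 (-0.09 to 0.01) and Prosbeta7 (-0.22 to 0.07) with DEX. With time they turned for Rpn13 (-0.01 to 0.32), Prosalpha7 (-0.35 to 0.00), Prosalpha3 (-0.31 to 0.13) and Prosbeta6 (-0.31 to 0.06). At ZT16 they turned for Prosbeta4R2 (-0.19 to 0.01) and Prosbeta3 (-0.55 to 0.02). On the 4-array table they turned for Prosbeta3 (-0.04 to 0.42), Rpt2 (-0.03 to 0.34), Rpn13 (-0.10 to 0.31) and Prosbeta7 (-0.08 to 0.28).

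Leaving out both DEX ZT16 replicate 2 and vehicle ZT16 replicate 1 was chosen after seeing the data and was bound to lower most DEX changes. Then 6 subunits were higher with DEX, with a median of -0.15, Rpn7 at -0.01 and Prosbeta4R2 at 0.01. For time, core minus regulatory particle was then -0.13 and Prosbeta4R1 was at -0.02.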

Other observations

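The vehicle array of the 8-array table without a labelled time entered no comparison of the report, only the alternative over all 8 arrays. Against each gene's mean over the 7 timed arrays, its 26 canonical subunits had a median deviation of -0.06, with 8 above that mean, and all kept probe sets had a median of -0.04, with 37.4% above. The values ran between -0.33 for Prosbeta2 and 0.27 for Rpt3.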
